A study of Drosophila melanogaster with 2 samples.

Results

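Abdominal-B (Abd-B) is the Hox gene at the end of the bithorax complex of Drosophila, and it encodes a homeodomain transcription factor that gives the posterior abdominal segments their identity. Its expression is set segment by segment by the regulatory domains iab-5, iab-6, iab-7 and iab-8, and boundary elements such as Fab-7 and Fab-8 keep neighbouring domains from acting on each other. In cells where such a domain is off, Polycomb group proteins keep it silent, and they are recruited to DNA stretches called Polycomb response elements. Polycomb-like (Pcl) is one of these proteins, a partner of PRC2, the complex that methylates lysine 27 of histone H3.

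Binding of Pcl across this region was taken from a single list of ChIP-seq peaks, stretches where DNA precipitated with Pcl was called enriched. The ChIP group, precipitated with the antibody KW4-Pcl-D2, came from whole embryos of 0 to 8 h, and its sample title names 3 replicates together. One input chromatin sample of the same stage was the control and has no list of its own here. The labels describe iso1 (y; bw cn sp) or transgenic flies in one sentence and do not say which were used for these samples. Whole embryos contain cells with Abd-B on and cells with it off, and the list does not separate them.

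The region was defined by position on build BDGP5 as 3R from 12695000 to 12810000, a window of 115 kb that takes in Abd-B and its iab-5 to iab-8 regulatory DNA. A peak belonged to it when the peak's centre fell inside. This rule gave 46 of the 2457 peaks of the list, or 1.87%, and they are numbered here 1 to 46 in order of position. In the Release 6 gene table of RefSeq, Abd-B is also on 3R, with MSAmiP and then abd-A before it and VhaM9.7-d after it, and iab-5 to iab-8, Fab-7 and Fab-8 are listed among the names of the gene. No annotation of build BDGP5 was used here, so single peaks were not assigned to a promoter, a domain or a boundary, and no sequence was read for them.

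Pcl peaks filled most of the Abd-B region. Together the 46 peaks covered 63.5 kb, which was 57.2% of the 111.0 kb from the start of the first to the end of the last peak. The deposited score, the peak caller's own value for each peak, ran from 50.96 to 1496 in the region, with a median of 179 and quartiles of 119 and 369. The lowest score anywhere in the list was 50.01, which lies just under the lowest of the region, and the scale of the score is not stated, so scores serve here only to rank peaks within the list. Since the replicates were combined, no value below carries a replicate error and there were no groups of samples to test against each other.

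A minority of the peaks stood far above the others. Of the 46, 10 had a score of 500 or more (21.7%), against 2.04% of the whole list. These 10 were also the members of the region among the 50 highest-scoring peaks of the list. The 20 highest scores (0.814% of the list) included 4 of the region, and the 100 highest (4.07% of the list) included 13. At least 1000 was reached by 4 of the 46, against 0.651% of the list, and at least 200 by 19 of the 46, against 7.45%. Of the 46 peaks, 36 scored 100 or more (78.3%), against 27.3% of the list. At the low end, 3 of the 46 scored under 60, whereas 26% of the list did.

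**Figure D1:**
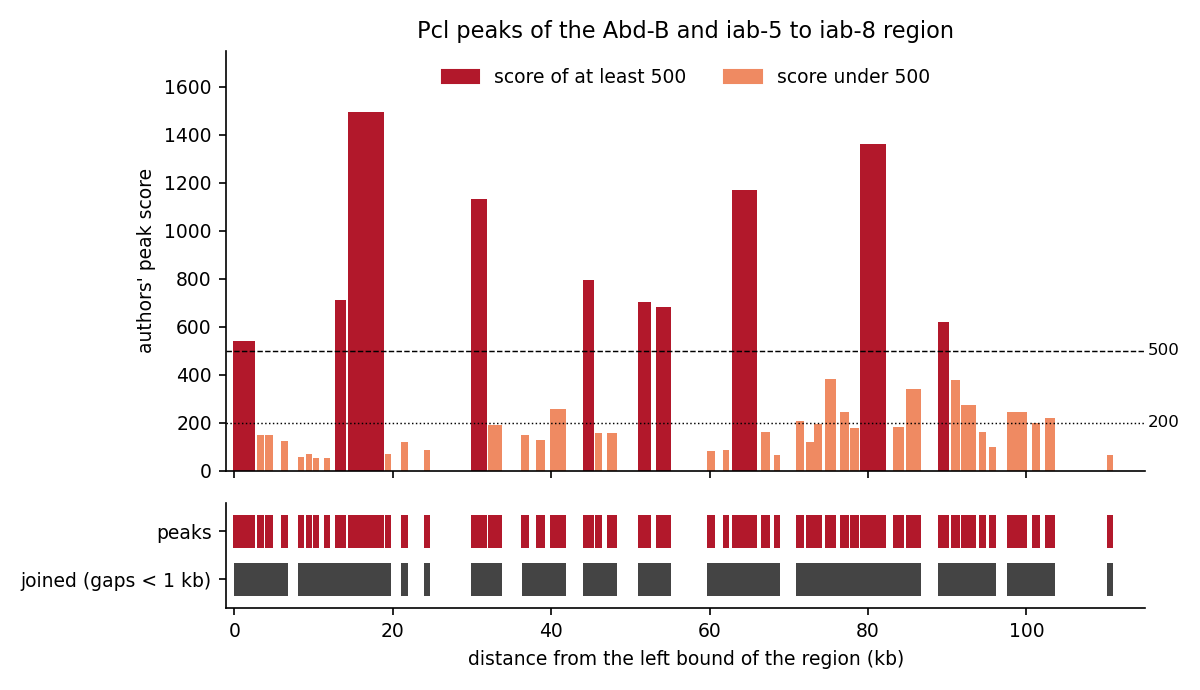
Upper panel: the authors' score (linear axis) of each of the 46 Pcl peaks against its distance in kb from the left bound of the region, each bar as wide as the peak; dark bars score at least 500. Lower panel: the same peaks, and the 13 stretches that result when gaps under 1 kb are closed. The 10 dark bars are spread over most of the region, and no peak to the right of the last of them reaches 500.

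The peaks are described from the abd-A side onwards, in the stretches that form when peaks with gaps under 1 kb are joined. This gave 13 stretches, of which 10 held at least 2 peaks and 3 were single peaks. All 10 high-scoring peaks lay in 8 of the 10 stretches with several peaks. The longest stretch measured 15.8 kb and contained 9 peaks. Whether peaks this close together are separate sites or parts of one was not tested.

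The first stretch ran from 12694889 to 12701779 with 4 peaks. Peak 1, at 12694889 to 12697642, was 2754 bp wide and scored 541, which placed it 46th in the list. It starts just before the left bound and belongs to the region through its centre. It was followed by 3 lower peaks, after gaps of 241, 85 and 998 bp. Peak 2 at 12697884 to 12698802 scored 148 (rank 320). Peak 3 at 12698888 to 12699861 also scored 148 (rank 316). Peak 4 at 12700860 to 12701779 scored 125 (rank 446). Across the left bound, the nearest peak outside the region was at 12687620 to 12688658 with a score of 83.0, and 6.23 kb without a peak separated it from peak 1.

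The second stretch, from 12703053 to 12714800, contained both the lowest and the highest score of the region. It opened with 4 narrow peaks, each scoring under the median of the whole list. Peak 5 at 12703053 to 12703744 scored 56.3 (rank 2050), and peak 6 at 12704053 to 12704808 scored 68.2 (rank 1408). Peak 7 at 12704955 to 12705688 scored 53.2 (rank 2251), and peak 8 at 12706373 to 12707084 had the lowest score of the region, 50.96 (rank 2386). Only 682 bp after peak 8 came peak 9, at 12707767 to 12709030, with a score of 712 (rank 31) and a width of 1264 bp. Peak 10 followed at 12709403 to 12713861 with the highest score of the region, 1496, the 6th highest of the list. With 4459 bp it was also the widest peak of all 2457. Peak 11, at 12714068 to 12714800 and 206 bp beyond peak 10, scored 69.98 (rank 1346), so the strongest peak of the region had at its side a peak under the median of the whole list, 73.6.

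A pair of isolated peaks came next, peak 12 at 12716013 to 12716956 with a score of 118 (rank 499) and peak 13 at 12718922 to 12719734 with 87.8 (rank 867). After peak 13 no peak was listed for 5.18 kb, the second longest empty stretch of the region. It ended at peak 14, at 12724911 to 12726892, which was 1982 bp wide and scored 1132, the 12th highest value of the list. Peak 15 at 12727065 to 12728810 lay 172 bp further on, was 1746 bp wide and scored 188 (rank 202). These high and middling values thus bordered directly on a stretch with none.

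The middle of the region held stretches of 3, 3 and 2 peaks with lengths of 5.56, 4.22 and 4.23 kb. From 12731249 to 12736811, peak 16 at 12731249 to 12732220 scored 150 (rank 311), peak 17 at 12733126 to 12734194 scored 129 (rank 424) and peak 18 at 12734842 to 12736811 scored 258 (rank 135). This stretch had several peaks but none of at least 500. From 12739053 to 12743274, peak 19 at 12739053 to 12740436 scored 793 (rank 26) with a width of only 1384 bp. The 32 bp between it and peak 20, at 12740469 to 12741423 with a score of 156 (rank 274), were the shortest gap of the region. Peak 21 at 12742059 to 12743274 scored 155 (rank 282). From 12745946 to 12750173, a pair of high peaks stood together. Peak 22 at 12745946 to 12747588 scored 704 (rank 33), and peak 23 at 12748180 to 12750173 scored 680 (rank 35). Behind them, 4.51 kb had no peak.

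The stretch from 12754682 to 12763878 had one dominant peak between lower ones. Peak 24 at 12754682 to 12755692 scored 82.3 (rank 975), and peak 25 at 12756680 to 12757482 scored 85.6 (rank 907). Peak 26, at 12757818 to 12760963, was 3146 bp wide and scored 1170, the 10th highest value of the list. Past it, peak 27 at 12761493 to 12762669 scored 161 (rank 258) and peak 28 at 12763143 to 12763878 scored 66.4 (rank 1501). Each of these 4 neighbours scored under the median of the region, and peak 27 was the highest of them.

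The longest stretch, from 12765898 to 12781668, differed from this in that nearly all of its peaks were of middle or high score. Before the high peak there were peak 29 at 12765898 to 12766941 (score 206, rank 172), peak 30 at 12767221 to 12768142 (121, rank 479) and peak 31 at 12768208 to 12769212 (196, rank 190). Peak 32 at 12769539 to 12770930 scored 380 (rank 79), peak 33 at 12771421 to 12772568 scored 243 (rank 148) and peak 34 at 12772764 to 12773870 scored 176 (rank 229). Peak 35, at 12773971 to 12777324, was 3354 bp wide and scored 1361, second in the region and 7th in the list. After it came peak 36 at 12778141 to 12779575 with a score of 183 (rank 214) and peak 37 at 12779833 to 12781668 with 342 (rank 94). None of these 9 peaks scored under 100.

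The far end of the region had 1 more peak of at least 500 and then none. From 12783881 to 12791176, peak 38 at 12783881 to 12785227 scored 620 (rank 39) and was the last peak of at least 500. Peak 39 at 12785426 to 12786630 scored 378 (rank 80), and peak 40 at 12786778 to 12788665 scored 276 (rank 123). Peak 41 at 12788972 to 12789859 scored 162 (rank 257) and peak 42 at 12790235 to 12791176 scored 100.3 (rank 664), so each peak of this stretch scored lower than the one before it. From 12792553 to 12798617, peak 43 at 12792553 to 12795053 was wide, 2501 bp, but scored only 244 (rank 146). Peak 44 at 12795640 to 12796659 scored 197 (rank 187) and peak 45 at 12797378 to 12798617 scored 218 (rank 163). Peak 46, at 12805162 to 12805868, stood alone after 6.54 kb without a peak, the longest empty stretch of the region, and scored 63.6 (rank 1641). Beyond it the next peak of 3R began only at 12837125, 31.3 kb further on, and scored 50.2. Dense binding thus ended inside the right bound, at peak 45, with only the low peak 46 after it. On the left the peaks went on beyond 6.23 kb without one.

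High-scoring peaks were set at intervals of several kb. Between the centres of neighbouring peaks of at least 500 the distance had a median of 10.2 kb and ran from 2.41 to 16.3 kb. In map order these distances were 12.1, 3.23, 14.3, 13.8, 7.02, 2.41, 10.2, 16.3 and 8.91 kb. Both of the short distances joined peaks with no other peak between them, peaks 9 and 10 and peaks 22 and 23. The other distances spanned 2 to 8 lower peaks. Lower peaks next to a high one did not stand out among the lower peaks. Next to one means directly before or after it in map order, whatever the gap, which reached 5.18 kb. The 15 lower peaks placed so had a median score of 156 (range 50.96 to 378), and the other 21 had a median of 148 (range 53.2 to 380).

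Cut into 5 equal parts of 23 kb, the window was unevenly filled. From left to right the parts held 12, 8, 8, 11 and 7 peaks, and peaks covered 68.5%, 45.5%, 52.8%, 69.6% and 39.0% of their length. The first part had the most extreme mixture, with 3 peaks of at least 500 and 5 under 100. Its median score of 122 was the lowest of the 5 parts. In the fourth part no peak scored under 100, and its median of 243 was the highest. The last part had no peak above 276, although its median of 197 was the second highest.

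Peak scores in the Abd-B region were higher than in the remainder of the same cluster. Peaks less than 10 kb apart form one cluster, and the largest cluster of the list contains all 46 peaks of the region and 61 more before it, on the side of abd-A and Ubx. The median score was 179 in the region (95% exact interval 148 to 244), against 83.0 in the remainder of the cluster (77.2 to 128). The remainder had 5 of 61 peaks of at least 500 (8.20%), and 11 of 61 of at least 200 (18.0%). Median widths were 1088 bp in the region (955 to 1347) and 831 bp in the remainder (775 to 1042), so the intervals of width overlapped and those of score did not. These intervals treat peaks as independent, which neighbouring peaks are not, and the difference was not tested. On 3R outside the cluster, the median score of 684 peaks was 70.4 and the median width 834.5 bp.

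Density was also compared with the next 2 clusters of the arms by number of peaks, a neighbouring pair elsewhere on 3R with 39 peaks in all. In the Abd-B region there were 41.4 peaks per 100 kb, against 30.2 in the remainder of its cluster and 23.7 in this pair. This order depends on whether close peaks are counted singly or joined. With gaps under 1 kb joined, the region had 13 stretches in 111.0 kb and the remainder 31 in 201.7 kb. Counted that way, the remainder was the denser of both. Peaks covered 57.2% of the span in the region, 32.1% in the remainder and 25.7% in the pair. The pair had a median score of 83.5, and 3 of its 39 peaks scored at least 500. At least 200 was reached by 13 of the 39 (33.3%), not far from the 41.3% of the region.

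Peaks of the Abd-B region were separated by short gaps. The 45 gaps had a median of 586 bp (95% exact interval 326 to 816), against 1001 bp (744 to 2270) for the 60 gaps in the remainder of the cluster, intervals that overlap. Under 1000 bp were 33 of the 45 gaps (73.3%), against 30 of 60 in the remainder and 12.1% of all gaps of the list. Under 200 bp were 9 of the 45 gaps in the region and 7 of the 60 in the remainder. At least 2000 bp was reached by 8 of the 45 gaps of the region and by 25 of the 60 in the remainder. For these limits no share over all gaps of the list was computed. Centre to centre, neighbouring peaks were 2.04 kb apart at the median in the region and 2.29 kb in the remainder. The gaps between edges thus differed more between both parts than the distances between centres did.

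**Figure D2:**
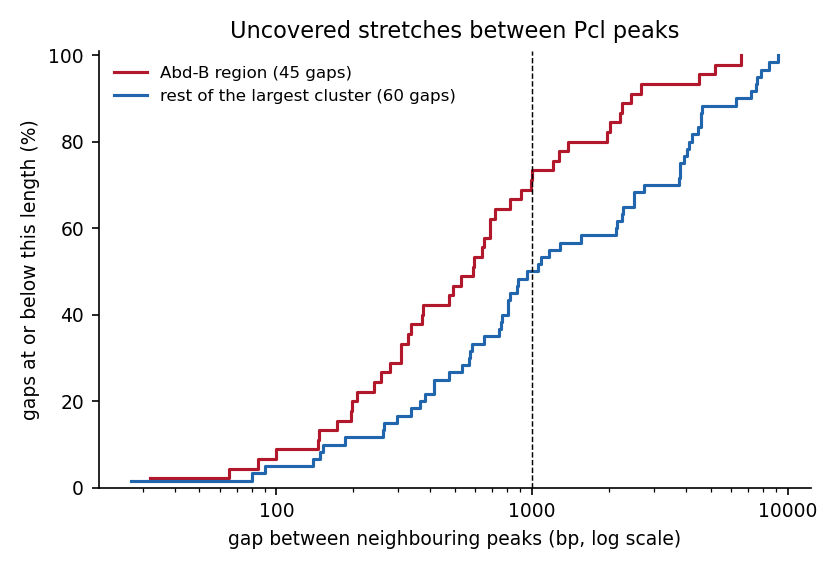
Share of gaps (%) at or below a given length (bp, log axis) for neighbouring peaks of the Abd-B region (45 gaps) and of the rest of the largest cluster (60 gaps); the dashed line marks 1000 bp. At that line the curve of the region stands at 73.3% (33 of 45), whereas 30 of 60 gaps of the rest are shorter.

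Wide peaks were also frequent in the region. A width of at least 1000 bp was found in 28 of the 46 peaks (60.9%), against 29.7% of the list. At least 2000 bp was found in 5 (10.9%), against 3.22% of the list. The other dense parts also lay above the list. In the remainder of the cluster these shares were 41.0% and 4.92%, and in the pair of clusters elsewhere on 3R 43.6% and 7.69%. At least 3000 bp was reached by 3 of the 46, against 0.814% of the list, and these were peaks 10, 35 and 26. The 10 peaks of at least 500 were 1264 to 4459 bp wide (median 1988 bp), and the 36 lower peaks were 692 to 2501 bp wide (median 989.5 bp). The high peaks accounted for 36.8% of the length covered in the region. Score and width went together in the region (Spearman's rho = 0.90 across 46 peaks) and in all peaks outside it (rho = 0.66 across 2411 peaks). The other dense parts were close to the region, with rho = 0.84 in the remainder of the cluster (61 peaks) and 0.84 in the pair of clusters (39 peaks). These are descriptions across peaks of one list that share their library and the caller's cut-off.

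Scores were also set side by side within width classes. Among peaks of 1000 to 1499 bp, the median score was 201 for 16 peaks of the region (95% exact interval 161 to 380), 151 for 16 peaks of the remainder of the cluster (129 to 191) and 103 for 501 peaks of the arms outside the cluster (98.1 to 107). Of the 16 in the region, 3 scored at least 500, and these were peaks 9, 19 and 38. Outside the cluster, 2 of the 501 arm peaks of this class did. Among all 533 arm peaks of the class, those of the cluster included, the share was 1.13%. The highest, peak 19 with 793, exceeded all 501 arm peaks of that class outside the cluster, whose highest score was 769. One peak of this class in the remainder of the cluster was higher, at 1178. Peaks under 1000 bp had a median of 94.1 in the region (18 peaks; 66.4 to 148), 74.8 in the remainder of the cluster (36 peaks; 64.6 to 81.3) and 65.1 on the arms outside it (1635 peaks; 63.98 to 66.1). In the class of 1500 to 1999 bp the region was not above the remainder of the cluster, with a median of 342 for 7 peaks against 343 for 6 peaks, and the median of 102 arm peaks outside the cluster was 165. Peaks of 2000 bp or more had a median of 1170 in the region (5 peaks, range 244 to 1496). The median was 560 in the remainder of the cluster (3 peaks, range 269 to 1077). It was 437 on the arms outside the cluster (71 peaks, range 65.4 to 2377). These ranges overlap.

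**Figure D3:**
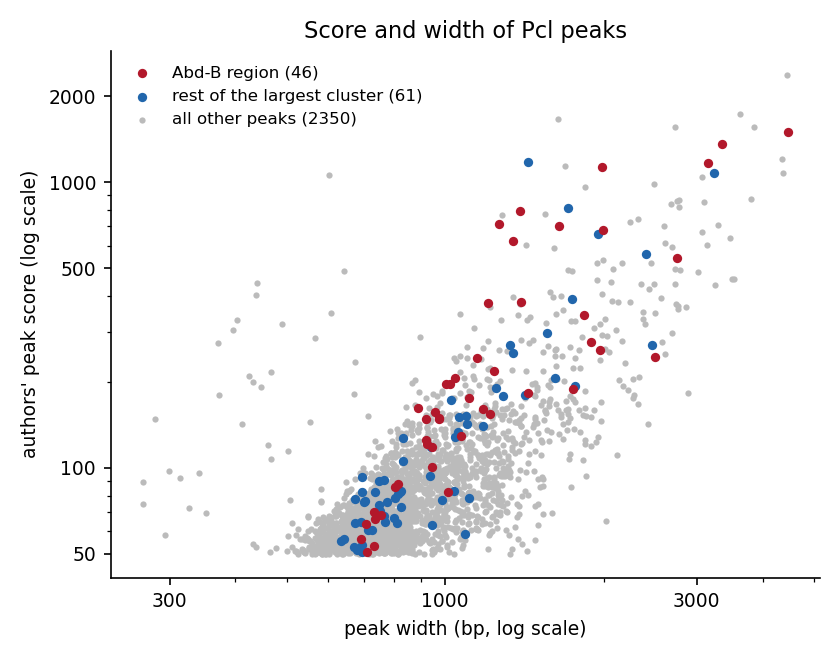
Authors' peak score against peak width (bp), both on log axes, for the 46 peaks of the Abd-B region, the 61 of the rest of the largest cluster and the 2350 others. The peaks of the region follow the general rise of score with width, and several of those between 1000 and 2000 bp lie above most others of their width.

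Against other stretches of equal length, the window ranked first in number and in coverage. The 5 large arms were divided into 985 stretches of 115 kb, laid so that the window itself was one of them. The window had 46 peaks, the next 32 and the median stretch 2, while 248 stretches had none. Peaks covered 55.1% of the full 115 kb of the window, against 29.7% of the next stretch and a median of 1.20%. It also had 10 peaks of at least 500, where the next stretch had 5 and 955 had none. Its highest score, 1496, ranked only 5th among the stretches. The stretches with 32 and 29 peaks, the second and the third by number, were the adjoining ones of the same cluster.

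**Figure D4:**
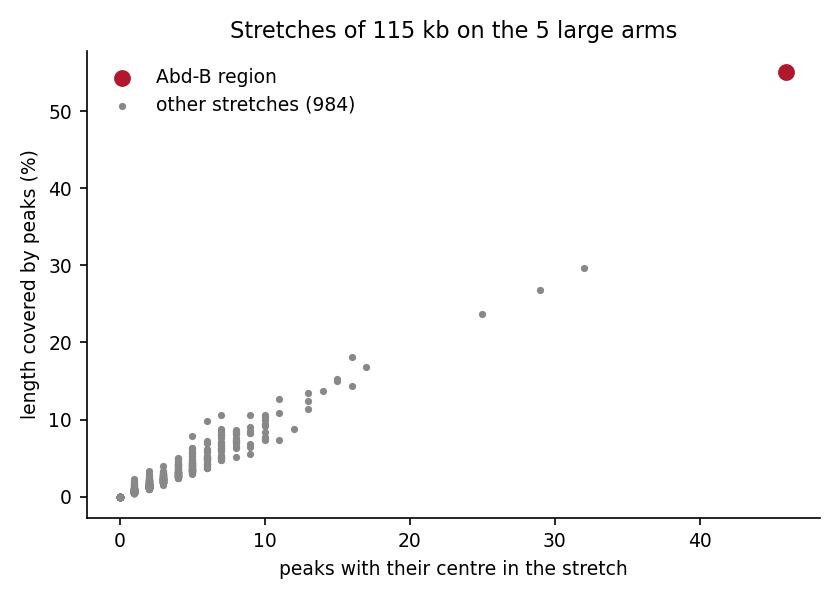
Length covered by peaks (%) against the number of peaks for each of 985 stretches of 115 kb on the 5 large chromosome arms. The Abd-B region, at 46 peaks and 55.1%, lies beyond all 984 others, of which the nearest has 32 peaks and 29.7%.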

How the data were processed

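MACS called the peaks, per the file headers, and Bowtie and build BDGP5 were used, per the submitters' processing notes. No source used here gives versions, settings or how replicates 1, 2 and 3 were combined. The deposited score is the peak caller's own value per peak, on a scale that is not stated; read depth is unknown. Starts were converted to 1-based positions. Peaks with gaps under 10 kb formed clusters. Intervals of medians are exact binomial (95%), taken from the ordered values of the peaks or gaps as if these were independent draws. They reflect the spread between peaks or gaps and hold no read-count or replicate error. No test was run, since one list has no replicates. Every peak of the region is named, as the rule for named items asks. The region and the lists were chosen with earlier results of these data known; the 5 equal parts, the width classes and the score and width limits were chosen after its values were seen. Interval arithmetic was tested on simulated data. The planned motif search of the Abd-B promoter was not run, as no sequence was used here. Python 3.11.15, pandas 2.3.3 and SciPy 1.17.1 were used.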

Additional observations from a re-analysis of the deposited data

How the results depend on the processing

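The number of peaks in the region was 45 to 46 under stricter or looser treatment of the bounds and 39 in the stricter list of the 1228 highest scores. Joining gaps under 1 kb left 13 peaks, with a median score of 620, a median width of 5563 bp and a median gap of 2226.5 bp, by construction of the joined list; the remainder of the cluster then had 31, with 129, 1710 bp and 3854.5 bp. Of the 50 highest-scoring peaks of the list, 10 were in the region; ranking by width gave 5 of the widest 50 (2.04% of the list), and the 20 highest scores gave 4 (0.814% of the list). The 100 highest scores gave 13 (4.07% of the list). In the stricter list, medians were 197 in the region and 129 in the remainder, and coverage of the region was 52.6%. With stretches laid from the first base of each arm, the window was cut across stretches. The stretch that overlapped it most took in peaks outside the region too. It ranked first with 41 peaks and 46.5% covered, against 31 peaks and 26.0% for the next by each measure. Single replicates could not be left out. No paired analysis was possible because all ChIP replicates share one list. Below the cut-off, bound and unbound sequence cannot be told apart.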
